A study of Drosophila melanogaster with 16 samples.

Results

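The sex difference of the smoke response in larval airways was measured over 16 of the 16 libraries of the series. They fall into 4 groups of 4: trachea of females after cigarette smoke, of females after air, of males after smoke and of males after air. All 4 groups are Canton S, the wild-type fly stock of the species Drosophila melanogaster, so no allele or transgene separates them. Smoke was mainstream smoke of 3R4F research cigarettes, drawn at 4 puffs per min for 60 min. The labels do not state larval age, how many larvae went into a library, or whether replicates were separate cultures. P-values therefore cover the spread among these libraries alone, and that spread may be technical. Members were all libraries of both sexes, and the contrast was (female smoke minus female air) minus (male smoke minus male air). It was taken for the 8606 of 17559 genes with a normalised count of at least 10 in at least 4 libraries of each sex. Each sex was normalised in a table of its own, so every change was taken within its table and a level in one sex is set beside the other without a test. A positive difference means that the female change lay above the male change, and all changes are on the log2(value + 1) scale with ± SE.

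The trachea of the fly larva is a branched tube of one epithelial cell layer that carries air to the tissues. Its cells line the lumen with a cuticle of chitin fibres, cuticle proteins and zona pellucida domain proteins, covered by lipids that keep water out, and parts of this lining are made anew at each molt. The same epithelium meets inhaled chemicals with cytochrome P450 enzymes, glutathione S-transferases, heat shock proteins and the JNK and Imd pathways. In flies, males raise transcription of their single X chromosome through the dosage compensation complex, which contains the roX RNAs, abundant in males.

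Libraries held 15036560 to 23434521 recovered reads, with 19367755 to 23434521 in replicates 1 and 2 and 15036560 to 19431772 in replicates 3 and 4. The sex labels were checked with roX1 (lncRNA:roX1, FBgn0019661, X), which stood at 1735 ± 367 in female smoke and 1388 ± 418 in female air, and at 17479 ± 3589 in male smoke and 17531 ± 5094 in male air (normalised counts, SD, n = 4 libraries each, tables normalised separately). All male libraries lay above all female ones. Every female library also had roX1 reads, and roX1 overlaps the gene ec in the annotation. The source of these female reads was not tested. The 10 tracheal markers that could be matched all had reads in every group, and their summed level was 8845 to 11394 CPM in female smoke, 6152 to 9673 in female air, 10164 to 13956 in male smoke and 7295 to 11373 in male air. Markers of attached tissue were present too. The 4 larval serum protein genes of the fat body summed to 732 to 4353 CPM in female smoke, 432 to 4496 in female air, 138 to 1298 in male smoke and 582 to 26340.5 in male air. Replicate 3 of male air was the highest library for these genes and for the salivary glue genes, where it reached 6660 CPM against 11.5 to 33.9 in the other male air libraries, and replicate 3 of female air was the highest for midgut markers, at 900.1 CPM. Results are therefore also given with both of these air libraries left out, a setting chosen after the values were seen.

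For 75 genes, levels after smoke were called higher than after air in female trachea libraries and lower in male ones. Of the 8606 genes, 187 (2.17%) had a sex difference called by limma with Benjamini-Hochberg adjustment over all genes tested, 172 of them positive (2.00%) and 15 negative (0.174%). The balance of signs depended on the fit. Of these calls 92.0% were positive, against 76.6% of the 342 calls of DESeq2 (262 positive and 80 negative). The share was 73.4% with array weights per library and 66.3% with a term for replicates 1 and 2 against 3 and 4. With a replicate block over all groups it was 49.6% of 817 calls, and with a block within each sex 50.8% of 669 calls. The excess of positive calls was absent under either block. Among the 172 positive genes, 75 rose in females and fell in males, 64 fell in males without a called change in females, 29 rose in females without a called change in males, and 4 rose in both sexes. The median change of these genes was 1.04 in females and -1.83 in males, and in 128 of them the male change was the larger in size. A difference of at least 2-fold was found for 141 called genes, all positive, and one of at least 16-fold for 58. Negative differences were small, with a median of -0.47 against 2.74 for the positive ones, and the most negative called difference was -0.84.

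Counted library by library, all 4 female smoke values lay above all 4 female air values for 109 of the 172 positive genes, against 13.9% of the genes tested, and all 4 male smoke values lay below all 4 male air values for 130, against 9.08%. Both held for 73 of the 172, against 0.883% of the genes tested. These genes were called on the same values, so the shares describe them and give no further support. Of the 15 negative genes, 4 had female smoke wholly below female air and male smoke wholly above male air, against 0.0813%. The median difference over the 8606 genes was -0.01, and at unadjusted p below 0.05 there were 626 positive and 577 negative differences. Across genes, the female and male changes had a Pearson r of 0.45 and a Spearman rho of 0.58, a description in which genes are not independent and the samples of each sex are shared.

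**Figure D1:**
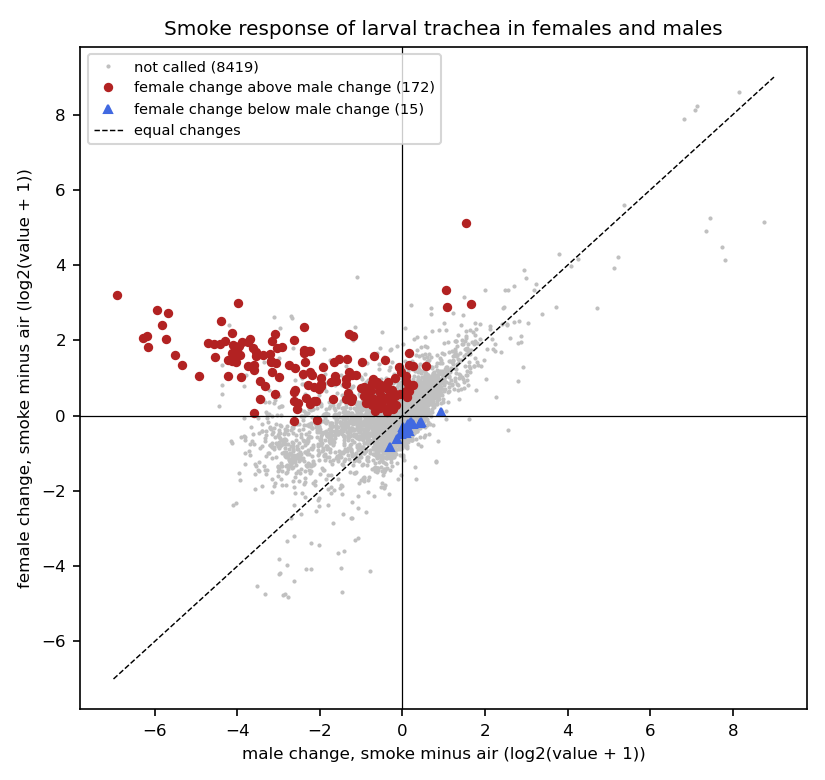
Change of each of the 8606 genes from air to smoke in males (x axis) and in females (y axis), both as smoke minus air on the log2(value + 1) scale, each point being 1 gene. The 172 genes with a called positive difference lie mostly in the upper left, where the female change is above 0 and the male change below 0, while the 15 with a called negative difference lie close under the line of equal changes.

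The split between replicates 1 and 2 and replicates 3 and 4, seen in depth and in the style of the column names, was examined within each sex. With a term for this split, 365 genes were called, 123 of them negative. With replicates 1 and 2 alone, 61 genes were called, of which 54 were among the 187, and with replicates 3 and 4 alone 1 gene was called, where 918 genes had an unadjusted p below 0.05. Without both air replicates 3, 151 genes were called (140 positive and 11 negative), of which 138 were among the 187. Counts also moved with single libraries: the 15 negative calls became 9 without female smoke replicate 3, 8 without female air replicate 4, and 7 without male air replicate 1 or without male air replicate 4.

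Cuticle protein genes included the called gene with the largest sex difference. Of 59 structural cuticle protein genes tested, 8 had a positive difference (2.00% of all genes tested) and 0 a negative one (0.174%), and their median difference was 1.31 against -0.01 for all genes tested. In females 10 of these genes rose (13.3% of all genes tested) and 0 fell (9.40%), and in males 2 rose (12.6%) and 15 fell (8.69%). The median change was 0.19 in females and -1.57 in males, and 49 of the 59 differences were above 0. Without both air replicates 3 the count was 7 positive, and the median difference was 1.24 in replicates 1 and 2 and 2.11 in replicates 3 and 4. Of the fat body and muscle marker genes, described further on, 5 of 10 and 7 of 19 fell in males (8.69% of all genes tested). Without both air replicates 3 these falls were 0 of 10 and 1 of 19, against 461 of all 8606 genes tested. The part of these tissues in the cuticle results was not tested. Each library is bulk tissue, so fewer cells of a type and less RNA per cell cannot be told apart.

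Cpr92F (FBgn0038819, 3R), a chitin-binding cuticle protein, had normalised counts of 9565, 10996, 15801 and 12523 in female smoke libraries, against 2628, 2207, 5846 and 3956 in female air. In males it had 80.5, 153, 287 and 110.1 in male smoke libraries, against 9276, 8703, 10198 and 13108 in male air. Neither sex showed any overlap: smoke lay above air in every female library and far below air in every male library. Its change was 1.82 ± 0.35 in females and -6.17 ± 0.35 in males, a difference of 7.99 ± 0.50 (95% interval 6.92 to 9.06, limma adjusted p = 7.53e-07). The difference was 8.41 in replicates 1 and 2 and 7.56 in replicates 3 and 4. Cpr100A (FBgn0039805, 3R), of the same family, had 5267, 5224, 7793 and 4796 in female smoke libraries, against 1069, 695, 3141 and 1248 in female air, and 47.5, 46.0, 115.1 and 40.98 in male smoke libraries, against 4016, 3647, 4074 and 5135 in male air. Again no female or male groups overlapped, and the difference was 8.29 ± 0.55 (limma adjusted p = 1.25e-06).

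Cpr62Bc (FBgn0035281, 3L) had the largest difference of all called genes, 10.13 ± 1.44 (limma adjusted p = 0.000982), but its female values were scattered. It had 3427, 2637, 13402 and 2361 in female smoke and 147, 96.6, 5675 and 486 in female air, so that the female groups overlapped through replicate 3 of air. In males the values were 9.70, 35.8, 10.6 and 15.2 in male smoke and 1703, 866, 4061 and 2690.4 in male air, with no overlap. Cpr56F (FBgn0034499, 2R) fell in males by a change of -4.41 ± 0.80 to 19.3 ± 15.7 in male smoke, against 466 ± 399.7 in male air (SD, n = 4 each), while its female change of 1.90 ± 0.80 was not called (limma adjusted p = 0.106), and the difference was 6.31 ± 1.13 (limma adjusted p = 0.00612). The other called cuticle genes, named after their values were seen, were Cpr65Av, Cpr49Ah, Cpr97Ea and Cpr49Ag, with differences of 4.37, 4.08, 3.22 and 1.32. Among genes known only by a CG number, CG8736 (FBgn0033308, 2R) and CG13043 (FBgn0036600, 3L) had the largest positive differences, 8.75 ± 1.34 and 8.25 ± 0.91 (limma adjusted p = 0.00156 and 0.00015). CG13043 averaged 6062 ± 3534 in female smoke and 1567 ± 1609 in female air, and 51.0 ± 19.3 in male smoke and 3063 ± 1228 in male air (SD, n = 4 each).

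The list for chitin synthesis and the tube wall held 29 genes, which build and modify the chitin layer. Of these, 3 had a positive difference (2.00% of all genes tested) and 0 a negative one (0.174%), with a median difference of 0.26. In females 8 rose (13.3% of all genes tested) and 1 fell (9.40%), and in males 2 rose (12.6%) and 3 fell (8.69%). Cda5 (FBgn0051973, 2L), a chitin deacetylase, had 2334, 2254, 1743 and 2009 in female smoke libraries, against 1089, 674, 1202 and 1030.4 in female air, and 344, 343, 410.1 and 265 in male smoke libraries, against 1782, 1689, 1183 and 1597 in male air. Smoke and air did not overlap in either sex, and the difference was 3.28 ± 0.26 (limma adjusted p = 7.78e-06), with 3.75 in replicates 1 and 2 and 2.81 in replicates 3 and 4. Idgf1 (FBgn0020416, 2L), which encodes a chitinase-like growth factor, rose in females by 1.67 ± 0.25, changed by 0.16 ± 0.25 in males without a call, and differed by 1.51 ± 0.36 (limma adjusted p = 0.0431). Without both air replicates 3 the adjusted p of Idgf1 was 0.115 in limma. Gasp (FBgn0026077, 3R), a chitin-binding protein of the tracheal lumen and one of the tracheal markers, stood at 21053, 19611, 19652 and 19498 in female smoke libraries, against 13042, 11506, 14523 and 12229 in female air. Its male values were 17678, 15354, 18768 and 16855 in male smoke and 16074, 14964, 15107 and 15570.5 in male air, where smoke and air overlapped, and its difference was 0.49 ± 0.11 (limma adjusted p = 0.0316).

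Of 12 zona pellucida domain genes of the apical matrix, nompA alone was called (2.17% of all genes tested), with a median difference of 0.00 over the list. In females 4 rose (13.3% of all genes tested) and 4 fell (9.40%), and in males 1 rose (12.6%) and 2 fell (8.69%). nompA (FBgn0016047, 2R), which encodes a matrix protein that couples sensory cilia to the cuticle, had 96.8, 116, 144 and 112 in female smoke and 33.2, 32.2, 52.9 and 64.1 in female air, and 1.94, 12.8, 15.9 and 7.02 in male smoke and 58.6, 56.1, 85.2 and 90.1 in male air. Its groups did not overlap in either sex, and the difference was 4.45 ± 0.62 (limma adjusted p = 0.000864). The gene dyl, another gene of the list, rose by 5.60 ± 0.67 in females and 5.38 ± 0.67 in males, with a difference of 0.22 ± 0.94 that was not called (limma adjusted p = 0.958). The melanization list, 21 genes for the pigment and hardening of cuticle, held 2 positive (2.00% of all genes tested) and 0 negative differences (0.174%) with a median of 0.66. Pu (FBgn0003162, 2R), GTP cyclohydrolase of the pteridine and dopamine pathway, averaged 2088 ± 174 in female smoke and 1521 ± 94.0 in female air, and 1195 ± 201 in male smoke and 1912 ± 177 in male air (SD, n = 4 each), with a difference of 1.15 ± 0.16 (limma adjusted p = 0.000697). The gene t (tan, FBgn0086367, X), a hydrolase that frees dopamine from its beta-alanine conjugate, differed by 2.45 ± 0.56 (limma adjusted p = 0.0325), and its groups overlapped in both sexes; without both air replicates 3 its adjusted p was 0.078 in limma. The gene snu (FBgn0039594, 3R), an ABC transporter of the cuticle barrier, rose in females by 0.84 ± 0.12 and differed by 0.71 ± 0.17 (limma adjusted p = 0.0415), with an adjusted p of 0.0515 in limma without both air replicates 3.

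**Figure D2:**
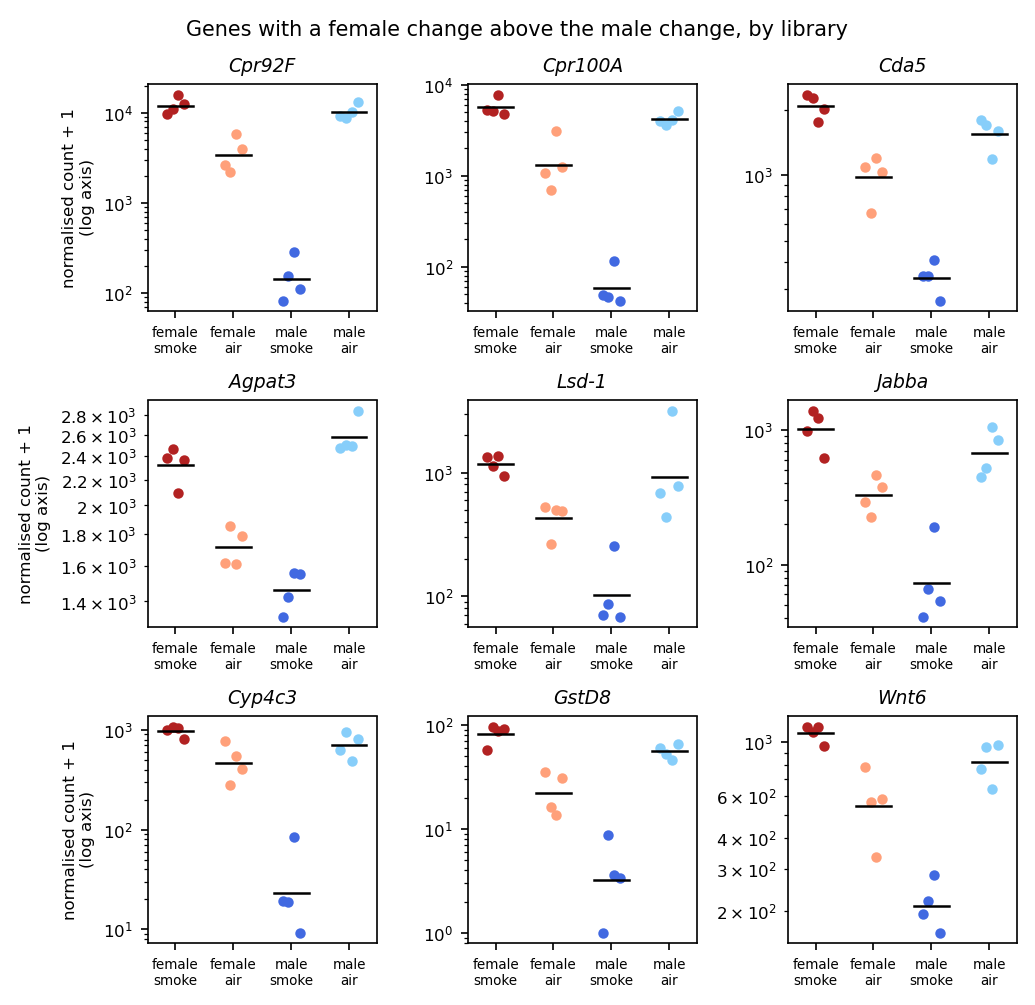
Normalised count plus 1 (log axis) of 9 genes in the 16 libraries, 1 point per library, with a bar at the geometric mean of each group; axes differ between genes, and the sexes come from separately normalised tables. In all 9 genes male smoke lies below every male air library and female smoke lies above every female air library, from Agpat3, with a difference of 1.26 (log2), to Cpr100A, with 8.29. For GstD8 the male order was fixed by the filter.

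Of 25 genes for fatty acid and lipid synthesis, 9 had a positive difference (2.00% of all genes tested) and 0 a negative one (0.174%). The median difference was 0.95. In females 10 rose (13.3% of all genes tested) and 0 fell (9.40%), and in males 2 rose (12.6%) and 9 fell (8.69%). In both sexes 5 genes were called in opposite directions (0.895% of all genes tested). Agpat3 (FBgn0036623, 3L), an acyltransferase that makes phosphatidic acid, had 2383, 2463, 2091 and 2371 in female smoke libraries, against 1615, 1853, 1609.6 and 1786 in female air, and 1321, 1423, 1553 and 1550.2 in male smoke libraries, against 2479.5, 2499, 2493 and 2842 in male air. Smoke and air were apart in both sexes, and the difference was 1.26 ± 0.11 (limma adjusted p = 1.89e-05). Desat1 (FBgn0086687, 3R), the main fatty acid desaturase of the fly, had 13603, 14677, 14876 and 11418 in female smoke and 8838, 7140.0, 8111 and 8694 in female air, and 7647, 7271, 8351 and 7128 in male smoke and 9379.5, 8623, 10804 and 11233 in male air. All female smoke values were the higher and all male smoke values the lower, with a difference of 1.12 ± 0.15 (limma adjusted p = 0.000673). Fatp3 (FBgn0034999, 2R), a fatty acid transport protein, rose by 0.90 ± 0.21 in females and fell by a change of -1.73 ± 0.21 in males, a difference of 2.64 ± 0.30 (limma adjusted p = 0.000215).

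The fatty acid elongase genes Elo68beta (FBgn0036128, 3L) and Elo68alpha (FBgn0052072, 3L) had the largest differences of the list, 8.39 ± 1.74 and 8.37 ± 1.61 (limma adjusted p = 0.0182 and 0.0106). Elo68alpha had 554, 654, 111 and 584 in female smoke and 148, 353, 15.1 and 88.3 in female air, where the groups overlapped, and 0.97, 96.3, 2.65 and 2.34 in male smoke and 540.2, 822, 253 and 786 in male air, where they did not. The female changes of Elo68beta and Elo68alpha were not called (limma adjusted p = 0.131 and 0.217), and edgeR did not call the difference of Elo68alpha (adjusted p = 0.0517). Both genes are neighbours of one family, and the labels do not say how reads were split between them. The other called genes of the list, named after their values were seen, were CG1441, wat, Acsl and ATPCL, with differences of 4.85, 1.37, 1.23 and 0.99. Outside the list, Agpat4 (FBgn0036622, 3L), another acyltransferase beside Agpat3, had 48.0, 57.5, 47.7 and 38.6 in female smoke and 17.0, 10.7, 13.9 and 15.5 in female air, and 0.97, 4.26, 5.29 and 1.17 in male smoke and 29.7, 36.6, 38.2 and 58.5 in male air, with no overlap in either sex and a difference of 5.24 ± 0.52 (limma adjusted p = 7.67e-05). Agps (FBgn0033983, 2R), which makes the ether bond of ether lipids, fell in males to 2.56 ± 2.38 in male smoke, against 159.9 ± 171 in male air, and averaged 137 ± 23.8 in female smoke and 58.4 ± 32.3 in female air (SD, n = 4 each), with a difference of 6.68 ± 0.88 (limma adjusted p = 0.000577). All male smoke values of Agpat4 and Agps lay below the filter value of 10, so both were kept in males only through male air. Their separation in males was thus fixed by the filter and gives no support.

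All 19 lipid droplet and storage genes tested had a difference above 0, with a median of 0.82, and 3 of them were called (2.17% of all genes tested). In females 7 rose (13.3% of all genes tested) and 0 fell (9.40%), and in males 0 rose (12.6%) and 6 fell (8.69%). Jabba (FBgn0259682, 2R), which anchors histones on lipid droplets, had 987, 1383, 1229 and 621 in female smoke libraries, against 292, 224, 458 and 375 in female air, and 39.8, 64.8, 190.5 and 52.7 in male smoke libraries, against 446, 519, 1053 and 835 in male air. No library crossed between smoke and air in either sex, and the difference was 4.84 ± 0.61 (limma adjusted p = 0.000413), with 5.41 in replicates 1 and 2 and 4.28 in replicates 3 and 4. Lsd-1 (FBgn0039114, 3R), a perilipin that coats droplets, had 1329.9, 1131, 1347 and 934 in female smoke and 523, 262, 494 and 485 in female air, and 68.9, 85.2, 255 and 66.7 in male smoke and 677, 437, 3157 and 775 in male air. Male smoke lay below male air throughout, although replicate 3 of male air stood far above the others; the difference was 4.65 ± 0.75 (limma adjusted p = 0.00251) and 4.13 without both air replicates 3. The gene fabp (FBgn0037913, 3R), a fatty acid binding protein, averaged 2812 ± 530.1 in female smoke and 1691 ± 346 in female air, and 1322 ± 345 in male smoke and 2676 ± 799 in male air (SD, n = 4 each), a difference of 1.74 ± 0.32 (limma adjusted p = 0.00829).

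Cytochrome P450 enzymes oxidise hormones, lipids and foreign compounds. Of 55 of their genes tested, 4 had a positive difference (2.00% of all genes tested) and 0 a negative one (0.174%), with a median of 0.68. In females 6 rose (13.3% of all genes tested) and 1 fell (9.40%), and in males 3 rose (12.6%) and 13 fell (8.69%), with 39 not called in males. Cyp4c3 (FBgn0015032, 3R) had 1003, 1073, 1039 and 810.2 in female smoke libraries, against 765, 279, 548 and 404 in female air, and 18.4, 17.9, 83.3 and 8.20 in male smoke libraries, against 633, 958, 487 and 805 in male air. The groups were apart in both sexes, the female change of 1.06 ± 0.51 was not called (limma adjusted p = 0.152), and the difference was 5.98 ± 0.72 (limma adjusted p = 0.000286). Cyp4d20 (FBgn0035344, 3L) and Cyp313a5 (FBgn0038005, 3R) differed by 6.64 ± 1.13 and 6.11 ± 1.13 (limma adjusted p = 0.00408 and 0.00745). Cyp4d20 had 332, 439, 396 and 298 in female smoke and 91.2, 72.1, 88.2 and 137 in female air, and 4.85, 18.7, 38.4 and 0 in male smoke and 172, 209, 144 and 402 in male air, again with no overlap. The fourth called member, Cyp6a20, named after its values were seen, rose by 5.12 ± 0.57 in females and changed by 1.55 ± 0.57 in males without a call, a difference of 3.57 ± 0.80 (limma adjusted p = 0.0305). Cyp6g2, also chosen after its values were seen, had the lowest value of the list, a difference of -2.93 ± 1.14 that was not called (limma adjusted p = 0.274).

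Glutathione S-transferases attach glutathione to reactive chemicals, and among 30 such genes only GstD8 had a called difference (2.17% of all genes tested). In females 13 rose (13.3% of all genes tested) and 2 fell (9.40%), and in males 4 rose (12.6%) and 3 fell (8.69%). The median difference was 0.47. GstD8 (FBgn0010044, 3R) had 56.4, 94.6, 86.2 and 90.6 in female smoke and 34.0, 15.3, 12.6 and 29.8 in female air, and 0, 7.67, 2.65 and 2.34 in male smoke and 59.5, 51.4, 44.5 and 64.2 in male air, with no overlap in either sex. All its male smoke values lay below the filter value of 10, so the gene was kept in males only through male air. The lack of overlap in males was thus fixed by the filter and gives no support. The difference of GstD8 was 5.99 ± 0.72 (limma adjusted p = 0.000286). The 13 rises in females against 4 in males do not by themselves show a difference between the sexes, since 29 of the 30 differences were not called. DESeq2 called 3 of the 30 and edgeR 1, against 342 and 171 of all 8606 genes tested. St4 (FBgn0033887, 2R), a sulfotransferase, had 1331, 1150.4, 1178 and 1114 in female smoke libraries, against 476, 345, 259.7 and 309 in female air, and 25.2, 64.8, 124 and 34.0 in male smoke libraries, against 748, 683, 468 and 704 in male air. Smoke and air were apart in both sexes, and the difference was 5.42 ± 0.52 (limma adjusted p = 5.06e-05).

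Further called genes are placed together here by their known roles, after their values were seen, with no list counted for them. PK1-R (FBgn0038201, 3R), a receptor for pyrokinin peptides, had 268, 273, 411 and 184 in female smoke and 101, 16.9, 92.0 and 48.6 in female air, and 14.6, 20.4, 92.6 and 5.85 in male smoke and 116, 111, 106 and 110.2 in male air, with no overlap and a difference of 4.72 ± 0.93 (limma adjusted p = 0.0125). Jhbp3 (FBgn0037288, 3R), of the juvenile hormone binding protein family, rose by 1.72 ± 0.49 in females and fell by a change of -2.27 ± 0.49 in males, a difference of 3.99 ± 0.70 (limma adjusted p = 0.00479). The gene to (takeout, FBgn0039298, 3R), of the same broad family, had 588, 809, 1217 and 428 in female smoke and 268, 23.8, 129 and 259.5 in female air, and 8.73, 4.26, 80.7 and 0 in male smoke and 135, 67.0, 164 and 539.6 in male air; only the male groups overlapped. Ms (FBgn0011581, 3R), the neuropeptide myosuppressin, was low and scattered, with 64.0, 41.7, 78.0 and 73.3 in female smoke and 20.1, 52.1, 2.52 and 0 in female air, and 24.3, 0, 2.65 and 3.51 in male smoke and 19.0, 77.1, 122 and 134 in male air, and its groups overlapped in both sexes. The differences of to and Ms were 6.93 ± 1.56 and 6.99 ± 1.61 (limma adjusted p = 0.0315 and 0.0355), and neither was called without both air replicates 3 (limma adjusted p = 0.0856 and 0.119) or by edgeR (adjusted p = 0.0636 and 0.122). ImpL2 (FBgn0001257, 3L), a secreted protein that binds insulin-like peptides, rose in both sexes but more in females. It had 7605, 7482, 8696 and 9363 in female smoke libraries, against 896, 1336, 952 and 1096 in female air, and 3633, 3915, 4408 and 6983 in male smoke libraries, against 1095, 1486, 1404 and 1888 in male air. The change was 2.96 ± 0.20 in females and 1.67 ± 0.20 in males, a difference of 1.30 ± 0.29 (limma adjusted p = 0.0271; 0.0856 in limma without both air replicates 3). It was the only called gene of 22 in the insulin and TOR list (2.17% of all genes tested), whose median difference was -0.05.

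In the Wnt pathway list, 1 of 21 genes had a positive (2.00% of all genes tested) and 1 a negative difference (0.174%), and the median was -0.20. Wnt6 (FBgn0031902, 2L), a secreted Wnt ligand, had 1152, 1102, 1153 and 962 in female smoke libraries, against 783, 564, 334 and 582 in female air, and 194, 219.8, 282 and 162 in male smoke libraries, against 771, 953, 639.8 and 974 in male air. Smoke and air were apart in both sexes, the change was 1.01 ± 0.23 in females and -1.96 ± 0.23 in males, and the difference was 2.97 ± 0.32 (limma adjusted p = 0.000132). The receptor gene fz4 (FBgn0027342, X) had the opposite sign, with 523, 515, 463 and 510.3 in female smoke and 776, 685, 662 and 689 in female air, and 591, 536, 573 and 618 in male smoke and 587, 628, 585 and 556 in male air. Only its female groups were apart, with smoke below air, and the difference was -0.46 ± 0.10 (limma adjusted p = 0.0237). Abd-B (FBgn0000015, 3R), the Hox gene of the posterior segments and a marker of the posterior spiracle, rose in females by 0.58 ± 0.12, changed by -0.17 ± 0.12 in males without a call, and differed by 0.76 ± 0.17 (limma adjusted p = 0.0315). The spiracle markers summed to 1329.7 to 1588 CPM in female smoke and 1037 to 1396 in female air, and to 1283 to 1393 in male smoke and 1029 to 1379 in male air, and their part in the Abd-B result was not tested.

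The 15 genes whose female change lay below the male change showed small differences, and 7 of them lie on the X chromosome (16.3% of all genes tested). The gene ec (echinus, FBgn0000542, X), of the ubiquitin-specific protease family, had 2659.8, 2376, 2713 and 2676 in female smoke libraries, against 3224, 2672, 2943 and 3039 in female air, and 2914, 3133, 3555 and 3148 in male smoke libraries, against 2219, 2409, 2531 and 2301 in male air. Male smoke lay above male air throughout, the female groups overlapped, and the difference was -0.62 ± 0.11 (limma adjusted p = 0.00481). In the annotation ec overlaps roX1, which is abundant in males, and without strand their reads cannot be told apart. Other named genes with a negative call overlap another tested gene too: Prp40, fz4, Rrp45, Prat, l(1)G0020 and Rtca. Among named genes with a positive call the same limit holds for Cyp4d20, Jabba, Lsd-1, fabp, Idgf1 and crq. Prat (FBgn0004901, 3R), which catalyses the first step of purine synthesis, and Prp40 (FBgn0031492, 2L), a splicing factor, were the 2 genes that fell in females and rose in males. Prat had 693, 756, 715 and 709 in female smoke and 885, 819, 802 and 818 in female air, and 827, 800.0, 811 and 739 in male smoke and 623, 681, 696 and 645 in male air, with no overlap, and its difference was -0.47 ± 0.08 (limma adjusted p = 0.00511). Prp40 differed by -0.37 ± 0.07 (limma adjusted p = 0.0148, and 0.0579 in limma without both air replicates 3).

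Grip71 (FBgn0032705, 2L), a part of the gamma-tubulin ring complex, fell in both sexes and more in females. It had 210.4, 233, 206 and 196 in female smoke and 389.7, 378, 387 and 364 in female air, and 247, 285, 266 and 269 in male smoke and 313, 343, 346 and 322 in male air, and no smoke library reached an air library in either sex. Its difference was -0.54 ± 0.10 (limma adjusted p = 0.00919). CycE (FBgn0010382, 2L), the cyclin that starts DNA replication, had 591, 512, 559 and 502 in female smoke and 817, 678, 760.1 and 724 in female air, and 643, 624, 622 and 577 in male smoke and 606, 651, 594 and 493 in male air; the female groups were apart and the male ones overlapped. The difference of CycE was -0.54 ± 0.13 (limma adjusted p = 0.0371), and the adjusted p was 0.0546 in edgeR and 0.1 in limma without both air replicates 3. Rrp45 (FBgn0030789, X), a subunit of the RNA exosome, SNRPG (FBgn0261791, X), a core protein of the spliceosome, and Rtca (FBgn0025630, X), an RNA cyclase, differed by -0.46 ± 0.08, -0.44 ± 0.10 and -0.61 ± 0.14 (limma adjusted p = 0.00466, 0.0315 and 0.0362). SNRPG was not called by edgeR (adjusted p = 0.0716) or in limma without both air replicates 3 (adjusted p = 0.0533). Rtca was not called by edgeR (adjusted p = 0.05465) but was in that limma setting, and Rrp45 was called in both. The remaining named genes were CG31612 (FBgn0051612, 2L), l(1)G0020 (FBgn0027330, X) and CG1142 (FBgn0037504, 3R), with differences of -0.84 ± 0.17, -0.56 ± 0.13 and -0.51 ± 0.10. The gene l(1)G0020 was not called by edgeR (adjusted p = 0.0514) or in limma without both air replicates 3 (adjusted p = 0.0927). CG1142 was called by edgeR but not in that limma setting (adjusted p = 0.0525), and CG31612 was called in both. CG31612 rose in males by 0.93 ± 0.12 and had the most negative called difference (limma adjusted p = 0.0185).

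**Figure D3:**
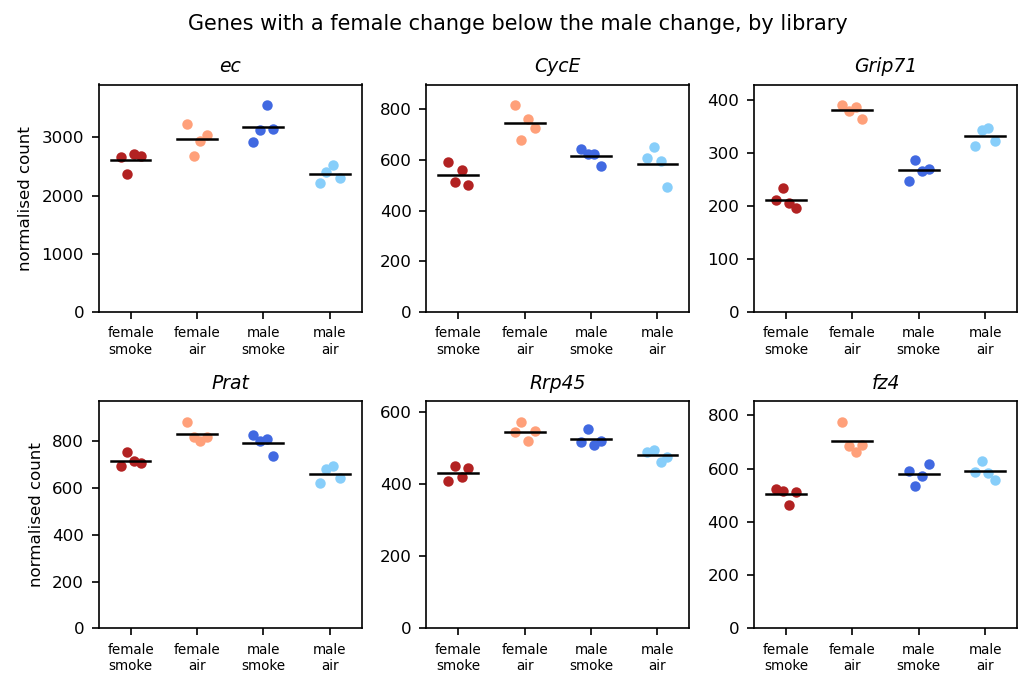
Normalised counts, on linear axes from 0, of 6 genes with a called negative difference in the 16 libraries, 1 point per library, with a bar at the mean of each group; the sexes come from separately normalised tables. Female smoke lies below female air without overlap for CycE, Grip71, Prat, Rrp45 and fz4, while male smoke lies above male air for ec, Prat and Rrp45 and below it for Grip71.

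By chromosome, 23 of 1400 X-linked genes tested were called (1.64%), 16 positive and 7 negative, against 160 of 6999 autosomal ones (2.29%), 152 positive and 8 negative. The median difference was -0.04 on the X and -0.01 on the autosomes, and 56.2% of X-linked differences lay below 0, against 51.3% of autosomal ones. Among 18 genes for dosage compensation and sex determination, 0 were called by limma. At an unadjusted p below 0.05 there were 0 positive and 3 negative differences, edgeR called 0 and 0, and DESeq2 called 0 and 1. Over all 8606 genes tested the same counts were 626 and 577, 163 and 8, and 262 and 80. Their median difference was -0.20, with 17 of 18 below 0. The splicing regulator tra (FBgn0003741, 3L) had the largest difference of the list, -0.55 ± 0.18, which was not called (limma adjusted p = 0.159). Of 183 called genes placed in the annotation, 28 lay in 13 runs of adjacent tested genes, a count that was not set against other genes. Cpr92F adjoins CG4000 and lncRNA:CR43452, and Agpat3 adjoins Agpat4, while wat lies beside lncRNA:CR44264 and lncRNA:CR45567. Where neighbours overlap, reads cannot be assigned without strand.

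Genes of DNA replication and division fell in females in 22 of 47 cases (9.40% of all genes tested) and in males in 1 (8.69%), counts of separate calls that do not test the sexes against each other. Of their differences, 46 were below 0, with a median of -0.40. CycE was the only called difference, while at unadjusted p below 0.05 16 genes had a negative difference, and DESeq2 called 2. Over all 8606 genes tested, 626 differences were positive and 577 negative at that threshold. For all genes tested edgeR called 163 positive and 8 negative, and DESeq2 called 262 and 80. The mitotic kinase gene aurB (FBgn0024227, 2L) had the most negative value, -0.83 ± 0.31, with 184, 156, 168 and 129 in female smoke and 394, 230.0, 391 and 406 in female air, and 194, 151, 255 and 146 in male smoke and 221, 233, 279.8 and 176 in male air; its difference was not called (limma adjusted p = 0.237). Mitochondrial ribosomal protein genes fell in females in 26 of 71 cases (9.40% of all genes tested) and in males in 6 (8.69%), with a median difference of -0.13. No mitochondrial ribosomal difference was called by limma. At an unadjusted p below 0.05 there were 0 positive and 8 negative differences, edgeR called 0 and 0, and DESeq2 called 0 and 0. The largest was that of mRpL23 (FBgn0035335, 3L), -0.46 ± 0.17 (limma adjusted p = 0.232). Notch pathway genes had a median difference of -0.26, with 23 of 25 below 0 and 0 called by limma. For that list, at an unadjusted p below 0.05 there were 0 positive and 7 negative differences, edgeR called 0 and 0, and DESeq2 called 0 and 0. E(spl)m8-HLH (FBgn0000591, 3R), a Notch target, had the largest value of that list, -2.01 ± 1.18 (limma adjusted p = 0.493).

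Heat shock genes, whose products keep damaged proteins from aggregating, had 12 rises among 17 in females (13.3% of all genes tested) and 15 in males (12.6%), with median changes of 2.69 and 3.38. Of their differences 16 were below 0, with a median of -0.87, and 0 were called by limma. For this list, at an unadjusted p below 0.05 there were 0 positive and 6 negative differences, edgeR called 0 and 0, and DESeq2 called 0 and 5. Over all 8606 genes tested, 626 differences were positive and 577 negative at that threshold. For all genes tested edgeR called 163 positive and 8 negative, and DESeq2 called 262 and 80. Hsp70Ab (FBgn0013276, 3R) had 407, 211, 86.2 and 121 in female smoke and 0.773, 72.8, 3.78 and 14.4 in female air, and 503, 646, 146 and 400.4 in male smoke and 0.826, 3.11, 0 and 0 in male air, so that smoke was above air in every library of both sexes. Its difference of -3.67 ± 1.32 (95% interval -6.51 to -0.84) was not called by limma (limma adjusted p = 0.225), and DESeq2 gave an adjusted p of 0.00916. Hsp70 copies are nearly identical in sequence, and which copy a read came from is uncertain. The copies within the counts of this list are therefore not separate evidence. The antioxidant and CncC list had 10 rises in females (13.3% of all genes tested) and 7 in males (12.6%) among 26 genes. Its median difference was 0.24, with 0 calls by limma. In this list, at an unadjusted p below 0.05 there were 5 positive and 1 negative differences, edgeR called 0 and 0, and DESeq2 called 1 and 0. Men (FBgn0002719, 3R), malic enzyme, which makes NADPH, had its largest difference, 1.70 ± 0.53 (limma adjusted p = 0.149; 0.0371 in DESeq2). Of 12 metal response genes, 7 rose in females (13.3% of all genes tested) and 3 in males (12.6%). The median difference was 0.07, and 0 were called by limma. Among them, at an unadjusted p below 0.05 there were 2 positive and 0 negative differences, edgeR called 0 and 0, and DESeq2 called 1 and 0. The metallothionein gene MtnE (FBgn0262146, 3R) had 146, 72.3, 172 and 103 in female smoke and 19.3, 9.20, 21.4 and 22.1 in female air, where the groups were apart, and 39.8, 29.0, 38.4 and 30.4 in male smoke and 16.5, 8.56, 16.5 and 75.7 in male air, where they overlapped, with a difference of 2.02 ± 0.72 (limma adjusted p = 0.217).

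A shared response was also present. Both sexes had a called change in the same direction for 866 genes (10.1%), of which 711 rose and 155 fell. For 736 of them the 95% interval of the difference lay within 1 log2 unit of 0 (70.4% of all genes tested). Of those, 47 changed at least 2-fold in both sexes. Of the 866, 5 had a called difference, against 2.17% of all genes tested. The 866 were chosen by calls of the same sign on the same values, which bears on this count. The gene puc (FBgn0243512, 3R), the phosphatase that is induced by and restrains JNK, had 4631, 4024, 4586 and 4809 in female smoke libraries, against 779, 1108, 716 and 904 in female air, and 3707, 3669, 3983 and 3779 in male smoke libraries, against 997, 770.0, 797 and 929.7 in male air. Smoke was well above air in every library, and the difference of 0.26 ± 0.17 had a 95% interval of -0.11 to 0.62. Pdk (FBgn0017558, 2R), the kinase that shuts pyruvate dehydrogenase, had 6422, 4573, 4970.0 and 5115 in female smoke and 841, 1113, 940.3 and 995 in female air, and 7243, 5067, 6038 and 4965 in male smoke and 861, 818, 1314 and 1065.8 in male air. It rose by 2.43 ± 0.16 in females and 2.53 ± 0.16 in males, with an interval of -0.59 to 0.39 for the difference. The regulatory subunit gene of glutathione synthesis, Gclm (FBgn0046114, 3R), rose by 1.78 ± 0.22 in females and 2.04 ± 0.22 in males (interval -0.93 to 0.40). The other named genes of this kind were Ak1, olf186-M, insc, Pino and DPCoAC, whose changes were 2.14, 1.72, 2.44, 2.04 and 1.90 in females and 1.76, 1.60, 2.42, 2.17 and 2.23 in males.

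In each of the stress and immune signalling lists, fewer than 50% of the genes rose in either sex. The share that rose was nevertheless above that of all genes tested, 13.3% in females and 12.6% in males. In the JNK pathway, 9 of 21 genes rose in females and 10 in males, none fell, and the median difference was 0.02. Among 38 Imd and Toll genes, 13 rose and 2 fell in females, 11 rose and 1 fell in males, and the median was 0.07. In the JAK-STAT list, 4 of 14 rose in females and 6 in males, with a median of -0.04. No difference in these 3 lists was called by limma, edgeR or DESeq2, and at unadjusted p below 0.05 they held 0, 1 and 0 positive and 0 negative differences. Over all 8606 genes tested there were 626 positive and 577 negative ones at that threshold. The interval of the difference lay within 1 log2 unit of 0 for 14 of 21 JNK, 28 of 38 Imd and Toll and 9 of 14 JAK-STAT genes, against 70.4% of all genes tested. The member with the largest difference was Mmp1 (FBgn0035049, 2R), a matrix protease, at 0.87 ± 1.30 in the JNK list, PGRP-SD (FBgn0035806, 3L), a peptidoglycan sensor, at 1.42 ± 0.94 in the Imd and Toll list, and et (FBgn0031055, X), a receptor-like antagonist, at 1.30 ± 0.62 in the JAK-STAT list. The other 23 lists held 461 tested genes, of which Gasp, Abd-B and snu were called (2.17% of all genes tested).

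**Figure D4:**
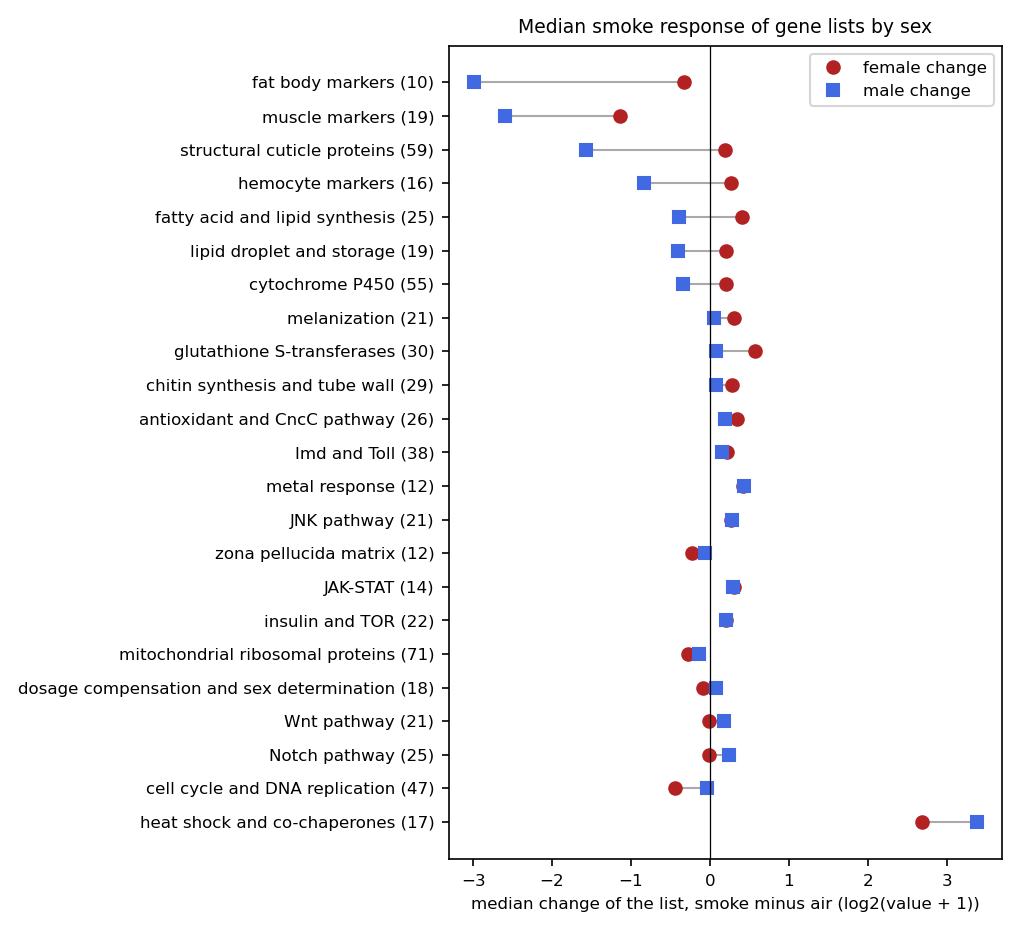
Median change from air to smoke of 23 gene lists, in females (circles) and males (squares), on the log2(value + 1) scale, with the number of genes tested in brackets and lists ordered by their median difference. Fat body, muscle, cuticle, hemocyte and lipid lists have the female median furthest above the male one, and the heat shock list has it furthest below.

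Markers of tissues that adhere to the trachea were counted as well. The 19 muscle genes had a median difference of 1.43. In females 0 changed, and in males 7 fell (8.69% of all genes tested). Their median change was -1.13 in females and -2.60 in males. Their summed level was 3755, 2546, 6843 and 2415 CPM in female smoke, 8790.2, 2178, 13705 and 11810.3 in female air, 1739, 4479, 1518 and 1797 in male smoke and 4744, 4129.6, 13470.4 and 6733 in male air, so 1 male smoke library overlapped with male air. The 10 fat body genes had a median difference of 2.31, with 0 changed in females and 5 fallen in males (8.69% of all genes tested). Without both air replicates 3, the falls in males were 1 of 19 muscle and 0 of 10 fat body genes, against 461 of all 8606 genes tested. No muscle or fat body difference was called by limma, edgeR or DESeq2, and 1 fat body and 0 muscle genes had an unadjusted p below 0.05. Among all genes tested 1203 had one. TpnC47D (FBgn0010423, 2R), a troponin C, and Lsp1gamma (FBgn0002564, 3L), a larval serum protein, had the largest values, 2.82 ± 1.68 and 2.90 ± 1.71.

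The 16 hemocyte genes, markers of blood cells, had a median difference of 1.08, and 1 was called (2.17% of all genes tested). In females 3 rose (13.3% of all genes tested) and 0 fell (9.40%), and in males 1 rose (12.6%) and 5 fell (8.69%). They summed to 1514 to 2128 CPM in female smoke and 1015 to 2307 in female air, and to 735 to 1290.1 in male smoke and 1386 to 2444 in male air, where the groups did not overlap. The scavenger receptor gene crq (FBgn0015924, 2L), which serves the uptake of dead cells, had 2270.1, 2690.1, 2339 and 2045 in female smoke and 2019.6, 2013, 1979 and 1879.6 in female air, and 1593, 1615, 1544 and 1385 in male smoke and 2356, 2304, 2013 and 2260.1 in male air. Its groups were apart in both sexes and the difference was 0.78 ± 0.11 (limma adjusted p = 0.00122). NimC2 (FBgn0028939, 2L), a phagocytosis receptor, had the largest difference of the list, 1.28 (95% interval -1.33 to 3.89), which was not called (limma adjusted p = 0.729). Salivary gland markers had a median difference of -1.18 over 10 genes, with 3 falls in females (9.40% of all genes tested) and 1 in males (8.69%). The sign of this median changed with the libraries: it was -3.72 in replicates 1 and 2 and 1.42 in replicates 3 and 4. Without both air replicates 3 it was -3.45. Midgut markers had a median difference of -1.75 over 7 genes, with no called change. That median was 1.99 in replicates 1 and 2, -7.11 in replicates 3 and 4, and -0.494 without both air replicates 3. Differences of Cpr92F, Jabba, Cda5 and Wnt6 without both air replicates 3 were 8.25, 4.79, 3.51 and 2.86. What the marker levels contribute to the differences was not tested.

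**Figure D5:**
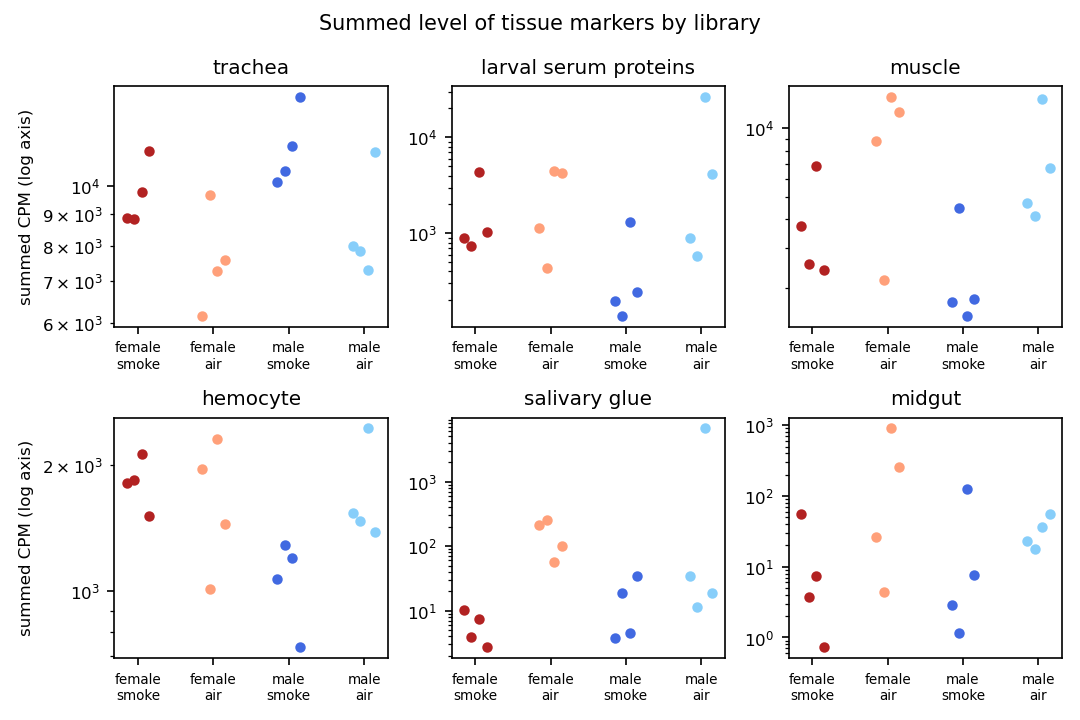
Summed level of tissue marker genes in CPM (log axis) in the 16 libraries, 1 point per library, replicates 1 to 4 running left to right within a group. For larval serum protein, muscle and hemocyte sums the lowest library is a male smoke one, and replicate 3 of male air stands far above its group for the serum proteins and the salivary glue genes.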

How the data were processed

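RNA of isolated trachea was sequenced as single reads of 75 bp, per the labels' protocols, in 16 libraries. The submitters' processing notes name STAR 2.6.0c and DESeq2 1.22.2 and a human genome build, so no coordinates are given; no source used here names the counting tool, its annotation or its use of strand. Normalised gene signal was deposited by the authors in a separate table for females and males, each holding 17559 genes; the values behave as read counts that were scaled by one size factor for each library. Whole reads were recovered from them, with 100% of values within 0.01 read of a whole number. The authors' deposited comparison tables, which hold log2 fold changes, served only for gene symbols. Of 17559 identifiers 17253 matched the annotation (Ensembl BDGP6.54), which served for names, chromosome arms and gene order, and 212 stayed without a symbol.

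A gene was kept if its value reached 10 in at least 4 libraries of each sex. Values were taken as log2(value + 1), which understates the change of low genes, and tested with limma 3.58.1 in R 4.3.3 (mean-variance trend, two-sided, 1 model over 4 group means, Benjamini-Hochberg over 8606 genes, threshold 0.05). The method was tested on simulated data. The design foresaw normalised values, so the count tests are alternatives: on recovered reads edgeR 4.0.16 called 171 sex differences and DESeq2 1.42.0 called 342. CPM were computed from recovered reads. Between replicates of a group, chi-square of the reads over its degrees of freedom was 23.8 to 318, above sampling noise, and none was counted as a copy. Replicate numbers did not meet the rule for pairing in every case, so no replicate block was fitted in the main model. Recovered totals of 15036560 to 23434521 reads leave counting error largest for low genes.

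Members and lists were chosen with earlier results of these data known. Named genes were, among called genes with a symbol and a group mean of at least 20, the 10 largest differences of each sign, up to 2 per sign with a CG number, up to 8 called in opposite and 8 in the same direction (same-direction genes also needed a 95% interval of the difference within 1 log2 unit of 0), up to 3 called members per list and the largest member of each of 23 lists described. The roX1 RNA was added as a label check. Alternatives were other pseudocounts (0.5 and 5), filters, scalings and weights, both count tools, replicate and batch terms, subsets of replicates, each library left out, each sex alone, and both air replicates 3 left out.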

Additional observations from a re-analysis of the deposited data

Results flagged for a closer look

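For 26 of 328 groups of 4 libraries checked, over named genes on the log2(value + 1) scale and marker sums in CPM, 1 library lay far from the other 3; chance alone gives about 1 in 20. The value beside each is the gap to the nearest library as a share of the group's range. In female smoke the highest library stood apart for Pu (replicate 2, 0.847), Gasp (replicate 1, 0.898), midgut markers (replicate 1, 0.878), larval serum proteins (replicate 3, 0.92). In female smoke the lowest library stood apart for Elo68beta (replicate 3, 0.859), Elo68alpha (replicate 3, 0.907), ec (replicate 2, 0.85). In female air the highest library stood apart for Mmp1 (replicate 2, 0.962). In female air the lowest library stood apart for Lsd-1 (replicate 2, 0.889), MtnE (replicate 2, 0.844), aurB (replicate 2, 0.931). In male smoke the highest library stood apart for Elo68alpha (replicate 2, 0.842), Cpr100A (replicate 3, 0.857), muscle markers (replicate 2, 0.906), midgut markers (replicate 3, 0.949), larval serum proteins (replicate 3, 0.908). In male air the highest library stood apart for Agps (replicate 4, 0.911), et (replicate 3, 0.832), Agpat3 (replicate 4, 0.942), tra (replicate 4, 0.848), l(1)G0020 (replicate 2, 0.839), trachea markers (replicate 4, 0.831), salivary gland markers (replicate 3, 0.998), hemocyte markers (replicate 3, 0.854), larval serum proteins (replicate 3, 0.863), Sgs glue genes (replicate 3, 0.997).

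For 48 named genes the smoke response differed between the sexes by a test of the difference itself (limma with Benjamini-Hochberg adjustment over all genes tested). The female minus male log2 differences above 0 were Cpr62Bc 10.1, CG8736 8.75, Elo68beta 8.39, Elo68alpha 8.37, Cpr100A 8.29, CG13043 8.25, Cpr92F 7.99, Ms 6.99, to 6.93, Agps 6.68, Cyp4d20 6.64 and Cpr56F 6.31. Further positive differences were Cyp313a5 6.11, GstD8 5.99, Cyp4c3 5.98, St4 5.42, Agpat4 5.24, Jabba 4.84, PK1-R 4.72, Lsd-1 4.65, nompA 4.45, Jhbp3 3.99, Cda5 3.28 and Wnt6 2.97, and smaller ones were Fatp3 2.64, t 2.45, fabp 1.74, Idgf1 1.51, ImpL2 1.3, Agpat3 1.26, Pu 1.15, Desat1 1.12, crq 0.779, Abd-B 0.759, snu 0.711 and Gasp 0.492. The differences below 0 were Prp40 -0.366, SNRPG -0.44, fz4 -0.457, Rrp45 -0.462, Prat -0.474, CG1142 -0.508, Grip71 -0.535, CycE -0.54, l(1)G0020 -0.565, Rtca -0.609, ec -0.615 and CG31612 -0.837.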

How the results depend on the processing

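No named gene with a called difference reversed its sign in the 32 settings. The settings share libraries with the calls, so this gives little support. Of the named genes without a call, Mmp1, olf186-M, insc, Pdk and Pino changed sign between settings. Over the 48 named genes with a called difference, 1276 comparisons with a setting kept the call and 257 lost it, most often where libraries were left out. Sex differences called numbered 171 in edgeR (8 negative), of which 164 were among the 187, and 342 in DESeq2 (262 positive and 80 negative), of which 184 were. Libraries rescaled to the same upper quartile gave 25 negative calls, and the share of positive calls was 86.0% against 92.0%. Array weights per library gave 323 calls (86 negative), 122 genes in opposite directions and 3049 female changes. A term for replicates 1 and 2 against 3 and 4 gave 365 calls (123 negative), 1336 genes in the same direction and 2782 male changes. In a model of its own the male table gave 1178 male changes.

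The pairing of libraries by number was checked by the correlation of deviations of same-numbered smoke and air libraries, which was 0.21, 0.338, 0.509 and -0.0808 in females and 0.389, 0.0426, 0.382 and 0.471 in males, so the numbers did not pair them in every case. In 6 of 8 the own number correlated best, a hint from the data and not from the design. A replicate block over all groups gave 817 calls (405 positive and 412 negative), with 163 genes in opposite directions, 1755 in the same direction, 3445 female changes and 3412 male changes. A replicate block within each sex gave 669 calls (340 positive and 329 negative), 146, 1644, 3255 and 3233. With these blocks 49.6% and 50.8% of the calls were positive, against 92.0% without a block, so the excess of positive calls was absent under either block.

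Replicates 1 and 2 alone gave 61 calls (60 positive and 1 negative), 27 genes in opposite directions, 127 in the same direction, 433 female changes and 261 male changes. Replicates 3 and 4 alone gave 1 call (1 positive and 0 negative, with 918 genes at unadjusted p below 0.05), 5, 398, 877 and 839. These fits have fewer libraries. Leaving out single libraries gave 131 to 188 calls, 121 to 177 positive and 7 to 17 negative ones, 53 to 85 genes in opposite directions, 663 to 963 in the same direction, 1453 to 1984 female changes and 1218 (without male smoke replicate 1) to 2066 male changes. Depth limits genes near the filter of 10, and with 4 libraries a group a difference that was not called may still exist.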
